A study of Homo sapiens with 11 samples.

Results

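FAM53B, XYLT1, MSI2, ACTN4 and SH3PXD2A are 5 genes whose bodies lost more H3K27ac-covered length than any others of 20056 protein-coding genes when 92-1 cells were given FHT-1015. They were chosen on that value: the length of the annotated gene body (RefSeq, GRCh38) covered by narrow H3K27ac peaks in DMSO minus that in FHT-1015. The 92-1 line is an established line from a uveal melanoma, a tumour of the pigment cells of the eye. One group of cells received DMSO, the solvent, for 4 h, and the other FHT-1015 for 4 h, a compound that blocks the ATPase of SMARCA4 (BRG1) and of SMARCA2; both are the same line, a single tumour's genotype, and the labels give no dose. Chromatin was immunoprecipitated for H3K27ac, SMARCA4, MITF, AP-2 (the antibody was raised against TFAP2A) and SOX10, and sequenced. For every antibody (5) and condition (2) a single library was sequenced, so every difference is one between 2 libraries, has no replicate check and carries no test.

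H3K27ac, acetylation of lysine 27 of histone H3, marks active promoters and enhancers, and long runs of it inside a gene are typical of clusters of enhancers. SMARCA4 or SMARCA2 drives each BAF complex, which uses ATP to slide or evict nucleosomes and so opens DNA to transcription factors. MITF, SOX10 and AP-2 are DNA-binding factors of the pigment cell and neural crest lineages, and in melanocytic cells they often occupy the same enhancers as BAF. The 5 genes belong to no common pathway. FAM53B takes part in Wnt signalling, where it helps β-catenin reach the nucleus. MSI2 is an RNA-binding protein known for keeping stem and leukaemia cells undifferentiated. XYLT1 is the xylosyltransferase that starts glycosaminoglycan chains on proteoglycans. ACTN4 is an α-actinin that crosslinks actin filaments, and SH3PXD2A (TKS5) is the scaffold protein of podosomes and invadopodia, the actin protrusions through which cells degrade matrix.

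All 7 pigment cell marker genes checked carried H3K27ac in DMSO, over 5.05 to 107 kb of their bodies. None of 2 fibroblast markers did, while 1 of 3 lymphocyte markers (PTPRC, 1.28 kb) and 1 of 3 epithelial markers (CDH1, 7.64 kb) did. The H3K27ac lists held 68093 narrow peaks in DMSO and 48103 in FHT-1015, although the FHT-1015 library was the deeper one by the background recovered from its peaks (1.05 times that of DMSO). The same ratio was 0.918 for SMARCA4, 0.854 for MITF and 0.960 for AP-2. For SOX10 it could not be recovered, because the FHT-1015 values were no whole reads, and the list shrank from 103379 to 33268 peaks. The identifiers deposited for the 2 SOX10 libraries also differ in their prefix from those of the other libraries and from each other. What the prefix stands for is not given in the sources used here, so for SOX10 a difference in preparation and the treatment cannot be told apart.

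The FAM53B body (chr10:124619292-124744378, 125 kb, minus strand) was covered by H3K27ac over 68.6 kb in DMSO and 22.8 kb in FHT-1015. That of MSI2 (chr17:57255851-57701581, 446 kb, plus strand) went from 63.7 to 19.4 kb. That of XYLT1 (chr16:17101769-17470960, 369 kb, minus strand) went from 53.0 to 11.9 kb, the largest proportional fall of the 5 at 77.7%. In ACTN4 (chr19:38647649-38731589, 83.9 kb, plus strand) and SH3PXD2A (chr10:103594027-103855576, 262 kb, minus strand) the covered length fell from 51.2 to 17.6 kb and from 43.2 to 11.9 kb. FAM53B and ACTN4 stood apart in density: acetylation covered 54.8% and 61.0% of their bodies in DMSO, against 14.3% to 16.5% in the other three, whose long bodies were acetylated only in stretches.

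Together the 5 bodies went from 279.7 to 83.5 kb. The length fell by at least 50% in 5 of 5, a direction fixed by the choice of genes; it did so in 17.1% of the 13236 genes with any H3K27ac in DMSO. In all, 51 genes had at least as much acetylated length in DMSO as SH3PXD2A, these 5 among them, and their median loss was 11.7%, close to the 11.2% of all acetylated genes. In the broad lists, which join neighbouring signal, the same 5 genes had the 5 largest losses, from 335.5 to 103.6 kb in sum, with MSI2 ahead of FAM53B. All 5 again fell by at least 50%, as did 18.8% of genes in the broad lists. The broad lists come from the same 2 libraries and are no second experiment.

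**Figure D1:**
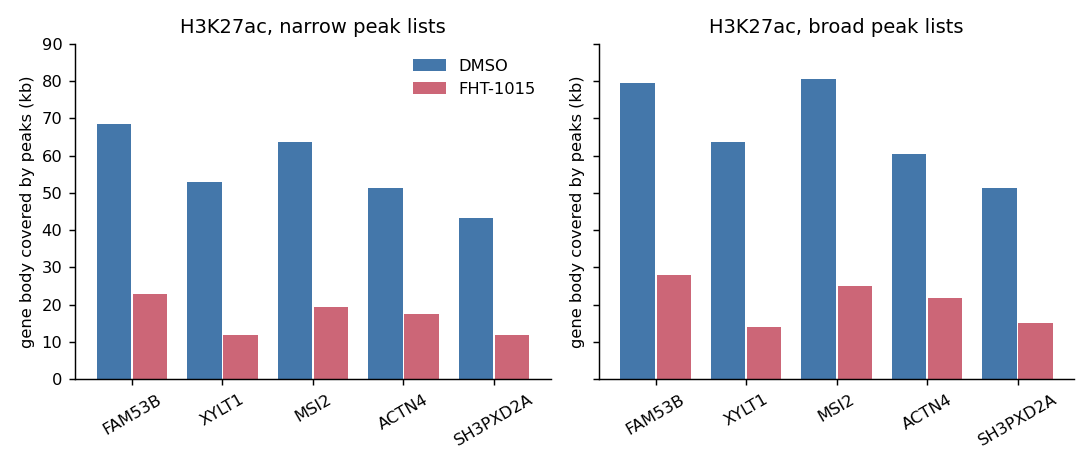
Length in kb of each gene body covered by H3K27ac peaks in DMSO (blue) and FHT-1015 (red), in the narrow lists (left) and the broad lists (right), 1 library per condition. Each FHT-1015 bar reaches between 11.9 and 22.8 kb in the narrow lists.

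Just outside the 5 were PTPRJ, with a loss of 29.97 kb against 31.3 kb for SH3PXD2A, then TBC1D7-LOC100130357 (29.8 kb), ACCSL (29.7 kb), POLR2F (28.5 kb) and SAMD4A (26.9 kb). The 5 members are therefore the top of a continuous ranking. Their nearest paralogs carried little acetylation. SH3PXD2B, the other TKS scaffold, had 4.42 kb in DMSO and 3.94 kb in FHT-1015, and ACTN1, the other non-muscle α-actinin, had 2.84 and 1.80 kb. FAM53C had 2.09 and 2.19 kb, XYLT2 1.07 and 1.05 kb, and FAM53A gained, from 1.83 to 3.23 kb. MSI1 had none in either condition, and the muscle α-actinins ACTN2 and ACTN3 had none in DMSO.

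At the first starts of FAM53B, MSI2 and ACTN4 most of the acetylated length was kept, and at those of XYLT1 and SH3PXD2A it was not. Within 1 kb of its start, FAM53B had 1.76 kb of H3K27ac peaks in both conditions. The first start of MSI2 had 1.48 kb in DMSO and 1.17 kb in FHT-1015, and the summit of the peak there was higher in FHT-1015 (63.6 times the library's mean pileup) than in DMSO (43.3 times). At the first start of ACTN4 the length was 1.36 and 1.04 kb, with similar summits of 56.3 and 51.4 times the mean. SH3PXD2A went from 1.68 to 0.644 kb at its first start, and XYLT1 from 0.850 kb to none. ACTN4 has a second annotated start inside the gene, chr19:38694121, and there the length went from 2.001 to 1.31 kb and the summit from 121 to 65.1 times the mean.

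Transcription factor peaks at these starts did not move as one. The highest SMARCA4 summit near the start went from 10.5 to 22.05 times the mean at FAM53B, from 12.1 to 13.6 at XYLT1 and from 16.3 to 21.5 at SH3PXD2A. At the first start of ACTN4 a SMARCA4 peak was listed only in FHT-1015 (chr19:38647659-38647946, −log10 p 16.4). MSI2 went the other way, from 20.4 to 15.8 times the mean. SMARCA4 was thus higher in FHT-1015 beside 4 of the 5 first starts, although H3K27ac-covered length had fallen or was level at all of them. The share of all annotated starts with such a rise was not computed. SMARCA4 peaks whose −log10 p reached 10 went from 11591 to 13144 over all gene bodies, so the rise may not be particular to these starts. AP-2 peaks stood at every first start in both conditions, and MITF peaks in both at that of MSI2 only. SOX10 peaks stood at 4 of the 5 first starts in DMSO (not XYLT1) and at 1 in FHT-1015, that of SH3PXD2A, with a −log10 p of 4.44.

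The 250 bases before 5 of these starts are printed 5′ to 3′ on the strand of the gene, from RefSeq on GRCh38.p14, to show what sequence lies at the points where acetylation was kept (FAM53B, the first start of MSI2), where the element was trimmed (the second start of ACTN4) or where no H3K27ac peak overlapped the window in FHT-1015 (XYLT1, the first start of SH3PXD2A). Capitals mark matches on either strand to 5 short patterns: the palindromic E-box CACGTG and its variant, the E-box CATGTG, both of the kind MITF binds; the AP-2 palindrome GCCNNNGGC; and a pair of cores bound by SOX proteins, of which one is ACAAAG and the other is ACAATG.
FAM53B, chr10:124744379-124744628: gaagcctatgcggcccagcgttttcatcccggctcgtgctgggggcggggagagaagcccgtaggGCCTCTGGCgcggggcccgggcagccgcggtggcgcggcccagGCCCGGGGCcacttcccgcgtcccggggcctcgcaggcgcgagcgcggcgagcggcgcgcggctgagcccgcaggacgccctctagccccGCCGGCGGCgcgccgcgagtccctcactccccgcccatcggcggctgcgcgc
XYLT1, chr16:17470961-17471210: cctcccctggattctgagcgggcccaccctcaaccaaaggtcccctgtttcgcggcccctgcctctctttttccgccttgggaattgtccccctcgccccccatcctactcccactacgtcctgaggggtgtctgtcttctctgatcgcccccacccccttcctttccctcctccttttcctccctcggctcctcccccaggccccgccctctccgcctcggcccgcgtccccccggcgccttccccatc
MSI2 first start, chr17:57255601-57255850: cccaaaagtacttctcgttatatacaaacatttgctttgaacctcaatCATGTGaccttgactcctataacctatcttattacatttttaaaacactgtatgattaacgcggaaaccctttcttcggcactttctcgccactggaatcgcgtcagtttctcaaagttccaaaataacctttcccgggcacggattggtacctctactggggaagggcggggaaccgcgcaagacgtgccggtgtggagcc
ACTN4 second start, chr19:38693871-38694120: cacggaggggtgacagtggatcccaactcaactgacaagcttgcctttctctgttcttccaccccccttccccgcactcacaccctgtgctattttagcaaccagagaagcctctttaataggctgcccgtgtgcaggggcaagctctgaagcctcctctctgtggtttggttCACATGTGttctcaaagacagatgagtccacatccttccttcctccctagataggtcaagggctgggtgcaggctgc
SH3PXD2A first start, chr10:103855577-103855826: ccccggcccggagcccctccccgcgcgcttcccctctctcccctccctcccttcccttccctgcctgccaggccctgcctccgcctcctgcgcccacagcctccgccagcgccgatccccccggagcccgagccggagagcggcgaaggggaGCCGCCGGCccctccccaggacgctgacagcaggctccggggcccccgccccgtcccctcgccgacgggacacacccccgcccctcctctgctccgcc

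The FAM53B window held 3 matches to GCCNNNGGC and that of SH3PXD2A 1, a pattern found in 19.8% of all 35116 promoter windows of this length. At both of these starts an AP-2 peak overlapped the printed window in DMSO. The highest AP-2 summit nearby was 31.5 times the mean in DMSO and 29.2 in FHT-1015 at FAM53B, and 29.0 and 15.5 at SH3PXD2A. MSI2 held 1 CATGTG, and ACTN4 a pair of overlapping CATGTG matches on opposite strands, a pattern found in 9.42% of windows. At both of these starts a MITF peak overlapped the window in DMSO: the highest summit nearby went from 26.6 to 34.8 times the mean at MSI2 and from 38.7 to 18.6 at ACTN4. The XYLT1 window held none of the 5 patterns, yet an AP-2 peak overlapped it in DMSO. The highest AP-2 summit nearby, 46.3 times the mean, belonged to another peak, 0.495 to 1.768 kb into the gene. The pattern CACGTG, found in 6.35% of all windows, matched in none of the 5 printed ones, nor did the SOX cores ACAAAG (13.7% of all windows) or ACAATG (9.29%). The genes have 11 annotated starts, and among the 6 not printed the third of SH3PXD2A, chr10:103678215, held CACGTG 151 bases before it. A MITF peak overlapped that window in DMSO and none in FHT-1015. The highest MITF summit nearby in DMSO, 44.5 times the mean (−log10 p 54.9), belonged to another peak, outside the window. A match describes letters, and does not show that the factor was bound through it.

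Inside the bodies, each narrow DMSO H3K27ac peak was taken as an element. There were 233: 46 in FAM53B, 48 in XYLT1, 62 in MSI2, 45 in ACTN4 and 32 in SH3PXD2A. An element was called lost when no FHT-1015 H3K27ac peak shared a base with it, trimmed when under 50% of its bases were still covered, and kept otherwise. Of the 233, 188 were lost (80.7%, 95% Wilson interval 75.1 to 85.2%, counting error only), 26 trimmed and 19 kept. Over all protein-coding gene bodies 38.3% of 43625 elements were lost. The share lost ran from 71.1% in ACTN4 to 87.5% in XYLT1. Gains were few: 4 of 83 FHT-1015 peaks in the 5 bodies had no DMSO counterpart, against 18.6% over all gene bodies. These values describe the contrast on which the genes were chosen.

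The lost elements were mostly short and weak, with a median of 434 bp and a −log10 p of 5.82. Of the 188, 175 were also without a peak in the broad FHT-1015 list. They tended to flank surviving acetylation: 127 (67.6%) lay within 5 kb of an element that was not lost, as did 55.5% of lost elements over all gene bodies. Lost elements held 109.8 kb of the 199 kb of element length no longer covered, and the shrinkage of surviving elements held the other 89.2 kb. In the broad lists most of the uncovered length lay in surviving elements. There 97 of 138 broad elements were lost (70.3%, against 34.3% over all gene bodies). They held 33.6% of the length no longer covered, against 36.3% over all gene bodies.

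Strong elements were lost as well. Of 74 elements whose −log10 p reached 10 in DMSO, 42 were lost (56.8%), against 9.73% over all gene bodies. In FAM53B the strongest one lost was chr10:124720952-124722239, 22.8 kb into the gene, with a summit of 35.4 times the mean and no peak of any of the 4 factors in either condition. In MSI2 it was chr17:57479596-57481132 (25.5 times the mean), which carried all 4 factors in DMSO and kept SMARCA4 and MITF peaks; a broad FHT-1015 H3K27ac peak still covered part of it. In XYLT1, chr16:17376921-17378786 (20.3 times) carried SMARCA4, MITF and SOX10 in DMSO and kept SMARCA4 and MITF. In SH3PXD2A, chr10:103766668-103769021 (20.8 times) carried all 4 factors, kept MITF and AP-2, and was also still covered in part by a broad H3K27ac peak. In ACTN4, chr19:38717086-38718210 (17.2 times) carried none in DMSO. The 5 strongest lost elements thus ranged from no factor peak to peaks of all 4.

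**Figure D2:**
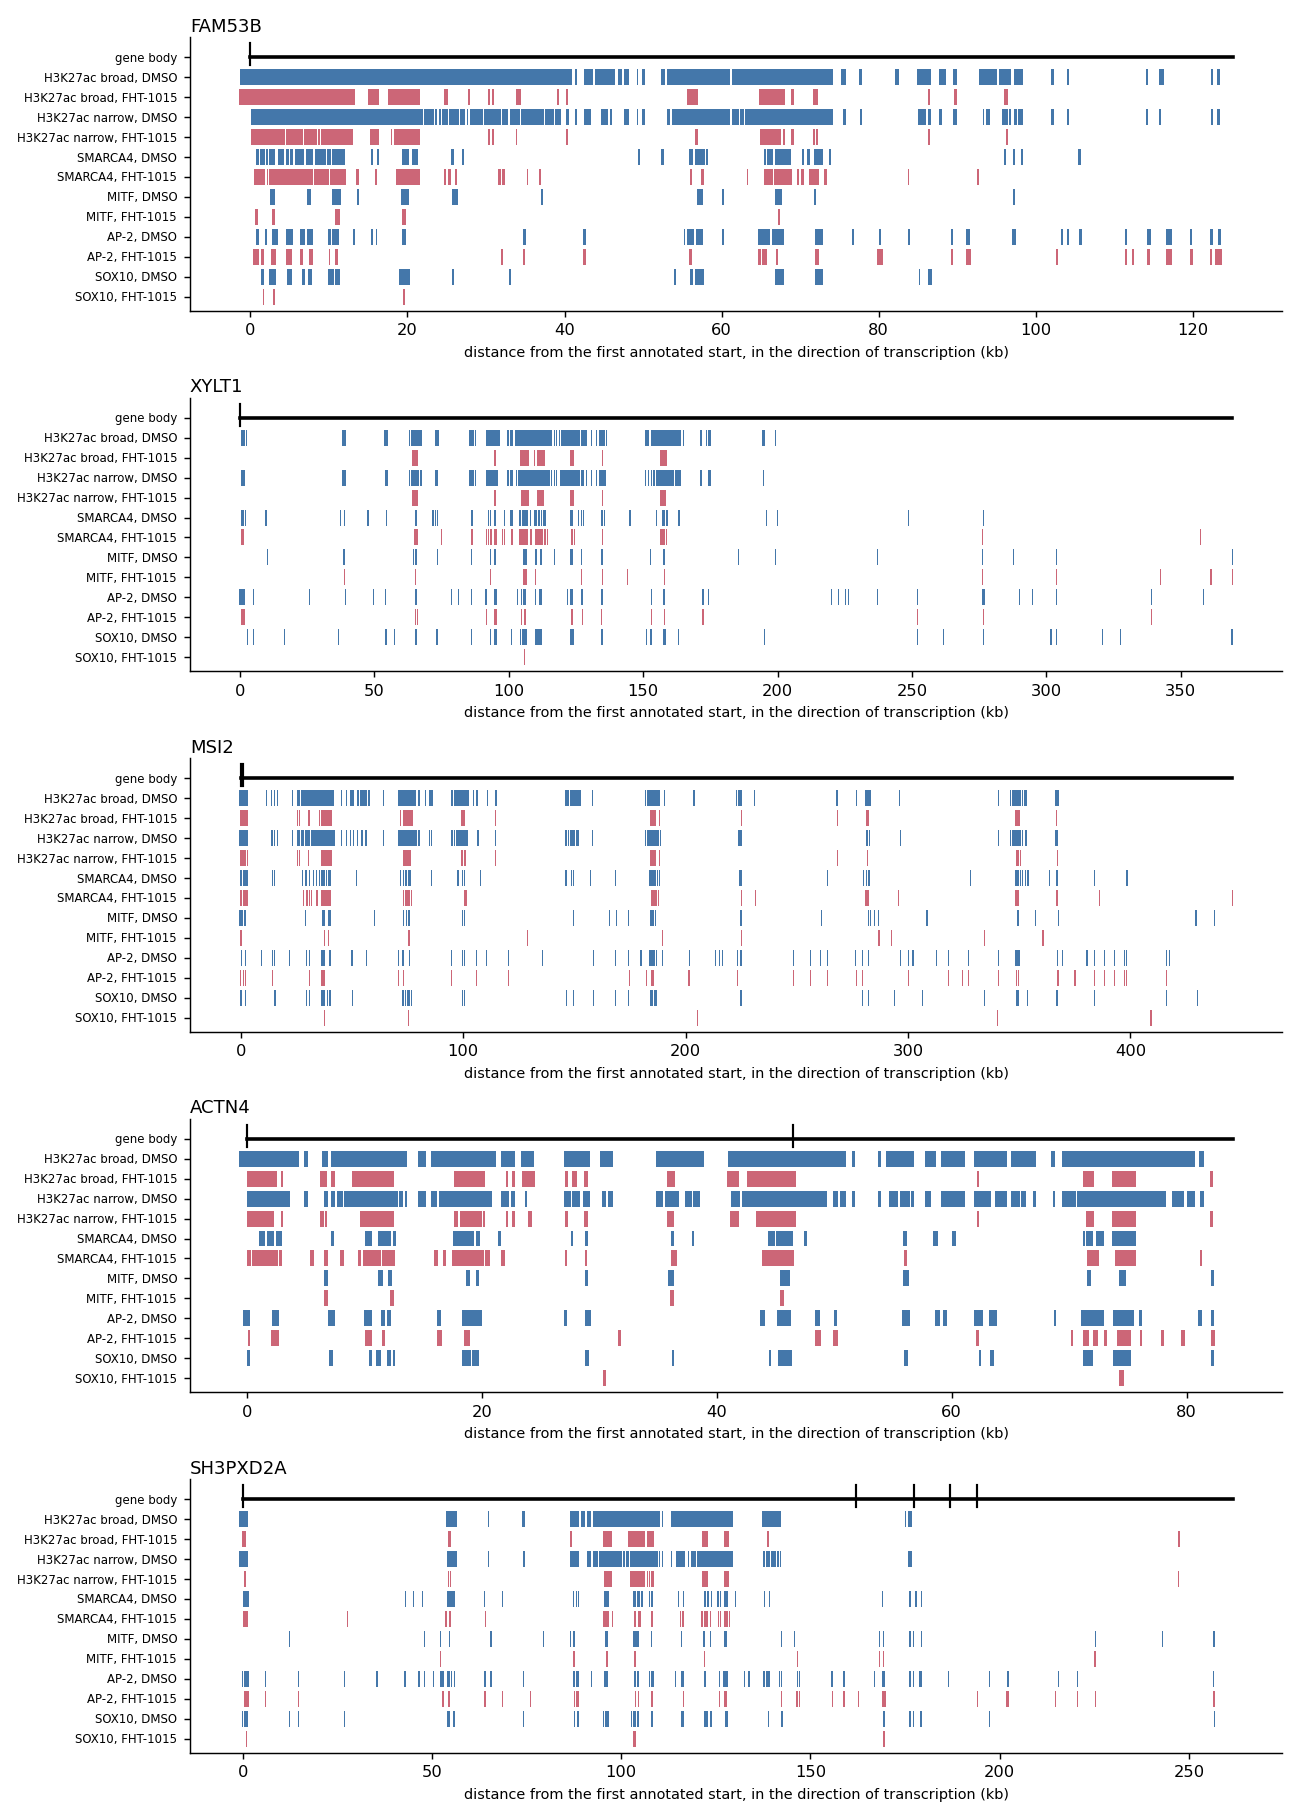
Peaks along each gene body, in kb from the first annotated start in the direction of transcription (black ticks are annotated starts), for DMSO (blue) and FHT-1015 (red): H3K27ac in the broad and narrow lists, then SMARCA4, MITF, AP-2 and SOX10. Short peaks are drawn slightly wider than to scale so that they can be seen. H3K27ac shrinks to islands inside the DMSO domains, SMARCA4 goes from 192 to 124 peaks, and the SOX10 rows are nearly empty in FHT-1015, with 14 peaks against 137. Over all protein-coding gene bodies SMARCA4 goes from 60602 to 54433 peaks and SOX10 from 58112 to 18886.

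The long domains of each gene were the 17 elements of at least 4 kb, a limit set after the data had been seen: 3 in FAM53B, 3 in XYLT1, 4 in MSI2, 4 in ACTN4 and 3 in SH3PXD2A. They were not erased: none was lost, 10 were trimmed and 7 kept, and 64.6 of their 133 kb stayed covered. Over all gene bodies, 13% of 1472 such elements were left with under 50% of their bases covered. The median coverage was 90.01%, against 47.3% for these 17. For elements over 1 kb from any annotated start the background values were 18.5% and 82.8%. The summit was lower in FHT-1015 in 16 of the 17, with a median ratio of 0.501. The same was so for 42.5% of all such elements, whose median ratio was 1.09, or 0.921 for those over 1 kb from any annotated start. The 95% interval of the ratio, from the reads at the summits alone, lay wholly below 1 in 14 of the 17.

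In FAM53B the longest domain, chr10:124722447-124744311, ran over 21.9 kb from just inside the start. It broke into 8 FHT-1015 peaks that covered 79.0% of it, and its summit fell from 149 to 91.6 times the mean. The downstream domain chr10:124670258-124681408 fell from 90.7 to 29.0 times the mean. Its neighbour chr10:124683361-124690710, 57.3 kb into the gene, was almost cleared: 0.283 of 7.35 kb stayed covered and the summit fell from 73.5 to 9.16 times the mean. The promoter-linked domain of FAM53B was therefore kept in larger part than the pair inside the gene.

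In MSI2 the summit ratios of the domains spread from 0.120 to 1.08, the widest range of the 5 genes; by length still covered FAM53B had the widest, 3.85 to 79.0%. The one at chr17:57326335-57333718, 74.2 kb into the gene, was trimmed to 48.6% of its length while its summit stood at 111 times the mean in DMSO and 121 in FHT-1015 (ratio 1.08, interval 0.895 to 1.31). The one at chr17:57289383-57297404 went from 97.4 to 82.9 times the mean, with an interval of the ratio that included 1 (0.686 to 1.06). By contrast chr17:57354062-57358158, 100.3 kb into the gene, fell from 93.3 to 11.2 times the mean, the lowest ratio of the 17 at 0.120. The last, chr17:57438774-57443430, fell from 111 to 70.2.

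The 3 domains of XYLT1 were all trimmed. Their summits fell from 125 to 60.5 times the mean (chr16:17310717-17316355), from 105 to 34.1 (chr16:17344578-17351385) and from 121 to 53.9 (chr16:17355718-17367599). All 3 lie over 100 kb into the gene, and the start had lost its acetylation altogether.

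In ACTN4 the 4 domains fell by similar factors, with ratios of 0.410 to 0.545. The tallest, chr19:38718336-38725938 near the end of the gene, went from 144 to 59.0 times the mean, and chr19:38689813-38697062, which holds the second start, from 121 to 65.1. The body shares 1.40 kb with CAPN12, and no H3K27ac lay there in either condition.

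In SH3PXD2A one domain stood out. At chr10:103745889-103753363 the summit was 108 times the mean in both conditions (ratio 1.00, interval 0.822 to 1.22) and 71.1% of the length stayed covered, while its neighbours chr10:103756490-103760577 and chr10:103725951-103734741 fell to ratios of 0.501 and 0.439.

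**Figure D3:**
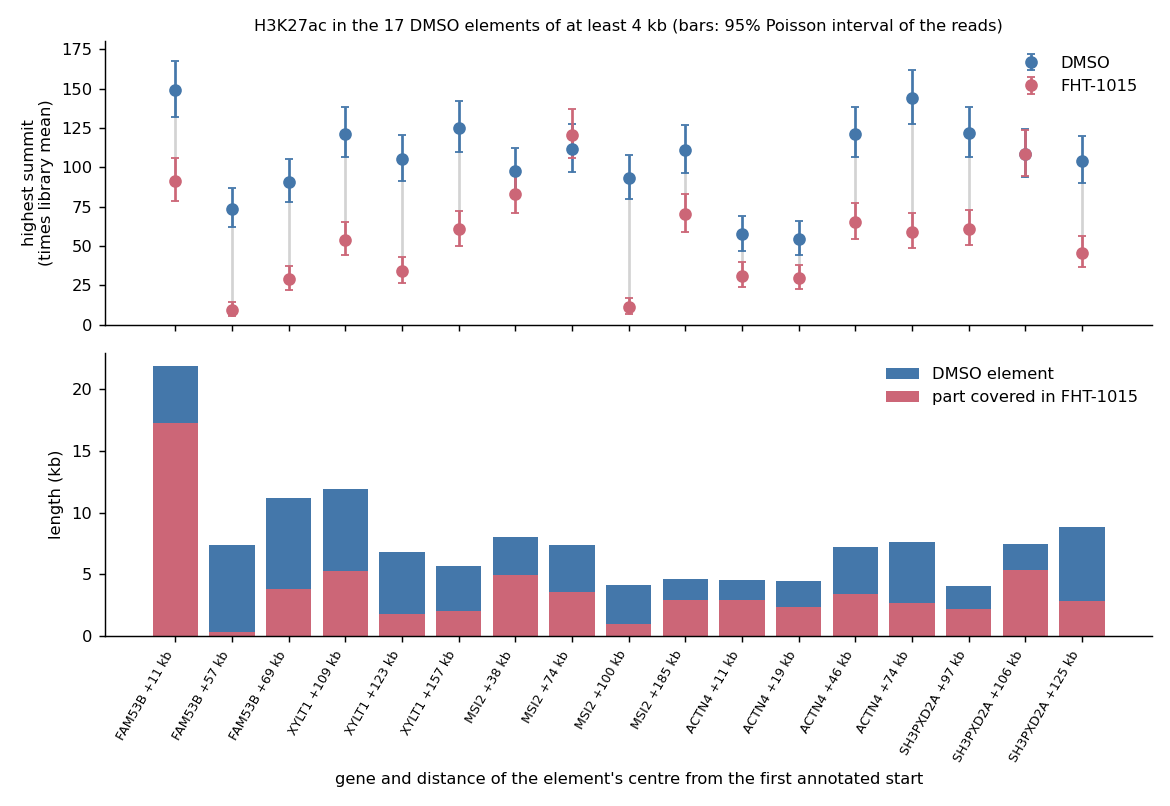
H3K27ac in the 17 DMSO elements of at least 4 kb, named by gene and distance from the first annotated start. The upper panel gives the highest summit in DMSO (blue) and FHT-1015 (red) as a multiple of the library's mean pileup, with 95% Poisson intervals of the reads; the lower panel gives the length in kb and the part covered in FHT-1015. The summit is lower in FHT-1015 in 16 of 17, most of all at FAM53B +57 kb and MSI2 +100 kb, and about level at MSI2 +74 kb and SH3PXD2A +106 kb.

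All 17 domains carried peaks of SMARCA4, MITF, AP-2 and SOX10 in DMSO, which is usual for elements of this length (96.7% over all gene bodies). In FHT-1015 all 17 still carried SMARCA4 and 15 AP-2, near the 99.3% and 92.1% of such elements over all gene bodies. MITF was left at 11 (64.7%, against 91.1%) and SOX10 at 6 (35.3%, against 74.6%). All 4 factors remained listed at 5 of the 17 (29.4%), against 69.2% over all gene bodies. SMARCA4 summits in the domains were lower in 11 and higher in 6, with a median ratio of 0.806 and a range of 0.449 to 1.30. MITF summits were lower in all 11 domains that kept a MITF peak (median ratio 0.450), and AP-2 summits in all 15 that kept an AP-2 peak (median 0.296). Over all gene bodies the median ratios in such elements were 1.10 for SMARCA4, 0.734 for MITF and 0.793 for AP-2. Of the 17 domains, 15 lay over 1 kb from any annotated start. Over all gene bodies, the median ratios in elements that far from a start were 1.03, 0.617 and 0.651, nearer to those of the 17. SOX10 was left at 66.7% of those elements and all 4 factors at 61.1%. For the 15 domains the shares were 33.3% and 26.7%, so these gaps were narrower but remained. MITF was left at 89.7% of those elements and at 9 of the 15.

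Counted over the whole gene bodies, SMARCA4 peaks were retained about as often as elsewhere. Retained here means that at least 1 bp of the DMSO peak lay in a peak that the same antibody gave in FHT-1015. For SMARCA4, 86 of 192 DMSO peaks were lost, against 42.6% over all gene bodies, so that 55.2% were retained (interval 48.1 to 62.1%). Among peaks over 1 kb from any annotated start, 54.7% were retained in the 5 genes and 47.9% in all gene bodies. The genes differed: 71.4% of SMARCA4 peaks were retained in FAM53B and 70.8% in ACTN4, but 42.4% in SH3PXD2A. The number of SMARCA4 peaks went from 192 to 124, against 60602 to 54433 over all gene bodies. Of the 124 in FHT-1015, 44 had no DMSO counterpart, against 41.7% over all gene bodies. The SMARCA4-covered length rose in FAM53B, from 20.6 to 23.3 kb, and in ACTN4, from 14.1 to 17.9 kb. It fell from 20.5 to 17.9 kb in XYLT1, from 28.003 to 20.7 kb in MSI2 and from 16.2 to 10.4 kb in SH3PXD2A. FAM53B and ACTN4 therefore lost 66.7% and 65.7% of their H3K27ac-covered length while their SMARCA4-covered length grew, in the broad lists too (31.3 to 32.1 kb and 19.3 to 20.7 kb). How often SMARCA4-covered length grew in other gene bodies was not computed, so the growth may not be particular to these genes.

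SOX10 was at the other end. Of 137 SOX10 peaks in the 5 bodies, 127 were lost, against 78.3% over all gene bodies, and 7.30% were retained (interval 4.01 to 12.9%). The background share is 22.02% when all gene bodies are weighted to the same peak strengths. Among SOX10 peaks over 1 kb from any annotated start, 6.98% were retained in the 5 genes and 13.9% in all gene bodies. By gene, the number of SOX10 peaks went from 17 to 3 in FAM53B, from 34 to 1 in XYLT1, from 40 to 5 in MSI2, from 18 to 2 in ACTN4 and from 28 to 3 in SH3PXD2A. Over all gene bodies the number of SOX10 peaks went from 58112 to 18886. Peaks whose −log10 p reached 10 went from 54 to 1 in the 5 genes, and over all gene bodies from 23419 to 2760. The one left in these genes, chr10:103751763-103752343 (−log10 p 14.5), lay in the SH3PXD2A domain whose H3K27ac summit was level. Of the 14 SOX10 peaks listed in FHT-1015, 4 were absent from the DMSO list, against 32.5% over all gene bodies.

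MITF and AP-2 lay between. For MITF, 74 of 108 DMSO peaks were lost, against 59.8% over all gene bodies, leaving 31.5% retained (interval 23.5 to 40.7%; 46.0% at the same strengths elsewhere). For AP-2, 112 of 216 were lost, against 40.1% over all gene bodies. That left 48.1% retained (interval 41.6 to 54.8%), against 61.0% at the same strengths elsewhere. Over 1 kb from any annotated start the gaps were smaller. There 30.4% of MITF peaks were retained, against 34.4% over all gene bodies, and 48.3% of AP-2 peaks, against 53.6%. Strong peaks also became fewer: 53 MITF peaks reached a −log10 p of 10 in DMSO and 11 did in FHT-1015, and for AP-2 the numbers were 110 and 49. For SMARCA4 they were 36 and 38. Over all gene bodies such peaks moved the same way, from 18250 to 8440 for MITF, from 39029 to 26542 for AP-2 and from 11591 to 13144 for SMARCA4. Peaks listed only in FHT-1015 were 11 of 44 for MITF, against 58.6% over all gene bodies, and 21 of 130 for AP-2, against 32.7%. The MITF library was the shallower one in FHT-1015, and the part of depth in its losses was not tested.

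**Figure D4:**
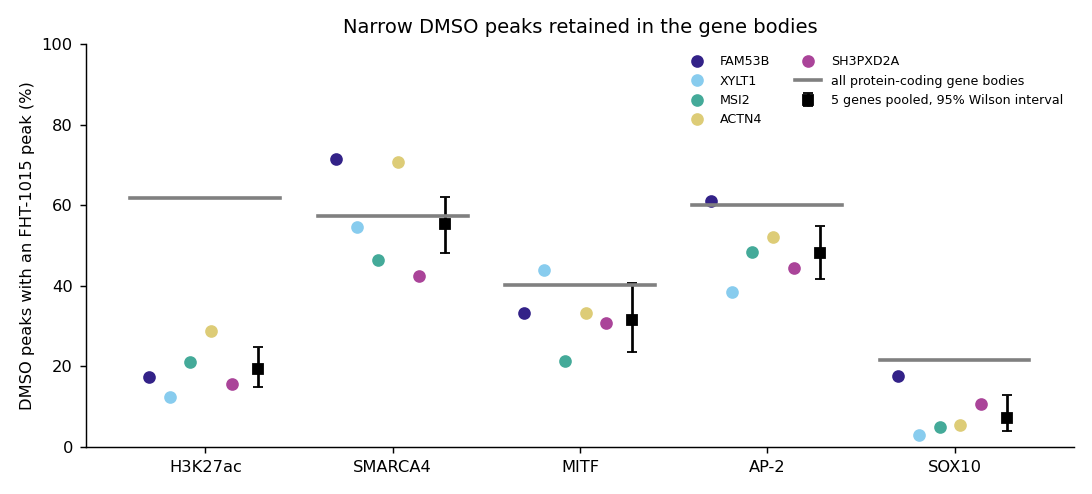
Share in percent of narrow DMSO peaks in the gene bodies that overlapped a peak of that antibody in FHT-1015, for each gene (coloured points) and for the 5 genes pooled (black squares, 95% Wilson intervals over peaks), with all protein-coding gene bodies as grey lines. The pooled share is 19.3% for H3K27ac, on which the genes were chosen, 55.2% for SMARCA4, near its grey line, and 7.30% for SOX10, below it.

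The strongest factor peaks sat in the long domains. Of the 20 strongest (1 for each gene and factor), 18 lay in an element of at least 4 kb and 19 were retained. How often the strongest peaks of other genes lie in such elements was not computed. Strong peaks were retained more often everywhere: of those whose −log10 p reached 10, 88.3% of SMARCA4, 66.4% of MITF, 76.3% of AP-2 and 38.8% of SOX10 peaks over all gene bodies. In FAM53B, MITF at chr10:124724239-124725180 fell from 212 to 95.6 times the mean, with the strongest SMARCA4 and SOX10 peaks of the gene at the same place. In MSI2, MITF at chr17:57331104-57332046 fell from 226 to 145 times, in the domain whose H3K27ac summit did not fall. In XYLT1, AP-2 at chr16:17346971-17348146 fell from 155 to 18.6 times. Only 1 of the 20 was lost outright: SOX10 at chr10:103727314-103728244 in SH3PXD2A, 118 times the mean in DMSO.

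AP-2 at chr10:103685941-103686592 in SH3PXD2A, 169 kb into the gene, went the other way. It stood at 124 times the mean in DMSO and 130.3 in FHT-1015. No H3K27ac peak lay there in DMSO, and a SOX10 peak was still listed there in FHT-1015 (−log10 p 4.79). The strongest AP-2 peak of this gene was thus outside all of its acetylated elements.

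Among the strongest lost factor peaks, again 1 for each gene and factor, 18 of 20 lay in a DMSO H3K27ac element and 11 in one of the long domains. The same shares were not computed for other genes. In FAM53B, MITF, AP-2 and SOX10 lost their strongest peaks at the same place, 57.2 kb into the gene, in the domain that was almost cleared: chr10:124686745-124687470 for MITF (45.2 times the mean), chr10:124686784-124687605 for AP-2 (93.3) and chr10:124686651-124687718 for SOX10 (67.3). In MSI2 the strongest lost MITF peak, chr17:57355216-57355902 (121 times the mean), lay in the domain with the lowest H3K27ac ratio. In XYLT1, MITF and SOX10 lost theirs together, 123.5 and 123.6 kb into the gene, where the bases at the summits remained acetylated. In ACTN4, MITF and AP-2 lost theirs together at 56.1 kb, in a short element of 0.815 kb that also lost its acetylation.

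Acetylation that survived in the long domains covered the DMSO summits of the factors more often than bases at large, except at SMARCA4 peaks that were lost. In FHT-1015, 48.6% of the bases of the 17 domains were still covered, but so were 45 of 56 SOX10 summits (80.4%), 32 of 41 MITF summits (78.0%), 40 of 55 AP-2 summits (72.7%) and 56 of 83 SMARCA4 summits (67.5%) of the DMSO lists. Among peaks lost in FHT-1015, 37 of 48 SOX10 summits, 18 of 26 MITF summits and 15 of 23 AP-2 summits were still acetylated. Lost SMARCA4 peaks went the other way, with 4 of 13 (30.8%), below the share of bases. Over all gene bodies 81.5% of bases and 90.1 to 94.7% of summits of the 4 factors were still covered. Among lost peaks there, the shares were 89.9% for SOX10, 87.6% for MITF and 84.3% for AP-2. For lost SMARCA4 peaks the share was 74.5%, again below that of bases. The direction at lost SMARCA4 peaks was therefore not particular to these genes, where it rests on 13 peaks.

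The same division was seen over all 233 elements. In DMSO a SMARCA4 peak lay at 23.4% of the 188 lost elements and 75.6% of the 45 others. The shares were 9.57% and 66.7% for MITF, 47 of 188 and 32 of 45 for AP-2, and 13.8% and 75.6% for SOX10. None of the 4 factors had a peak at 60.6% of the lost elements (interval 53.5 to 67.3%) or at 15.6% of the others (7.75 to 28.8%). Lost elements over all gene bodies carried factors more often: 37.5% had SMARCA4, 26.9% MITF, 34.0% AP-2 and 34.6% SOX10, and 43.4% had none. Lost elements were also weaker and shorter, and a short element has less room for a peak. Among the 42 lost elements whose −log10 p reached 10, 16 (38.1%) had none of the 4 factors, against 8.72% over all gene bodies.

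In FHT-1015 the elements that were not lost had SMARCA4 at 36 of 45, AP-2 at 27, MITF at 16 (35.6%) and SOX10 at 7 (15.6%). Over all gene bodies the shares were 75.9%, 66.4%, 47.9% and 36.0%, so SMARCA4 and AP-2 lay near the background. The lost ones had SMARCA4 at 10.1%, AP-2 at 10.6%, MITF at 2.66% and SOX10 at 0.532%. Lost elements over all gene bodies had them at 22.4%, 16.7%, 7.59% and 1.64%. Among surviving elements SMARCA4 was thus as frequent as in DMSO (34 of 45), while SOX10 dropped from 34 to 7.

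**Figure D5:**
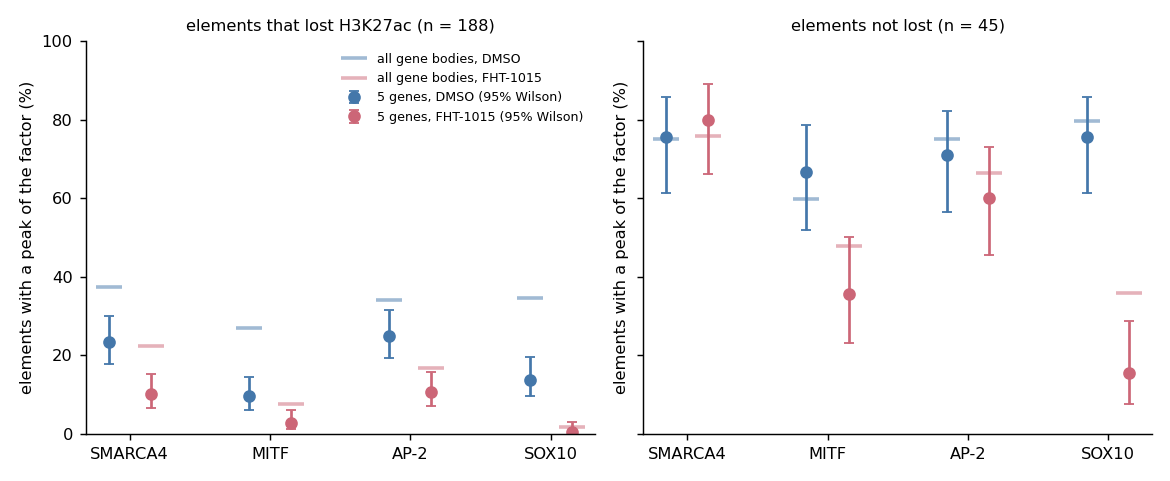
Share in percent of H3K27ac elements of the 5 genes that had a peak of each factor in DMSO (blue) and FHT-1015 (red), with 95% Wilson intervals, for the 188 lost elements (left) and the 45 others (right); short horizontal bars give the same shares over all protein-coding gene bodies. Surviving elements have SMARCA4 at 36 of 45 in FHT-1015 and SOX10 at 7 of 45 (15.6%).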

How the data were processed

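ChIP-seq of 92-1 cells gave 14 deposited peak lists, 1 narrow list for each of 10 libraries and 4 broad lists (H3K27ac, SMARCA4); the input library of DMSO cells had no list used here. The titles gave the groups. Per the submitters' processing notes, BWA, SAMtools, Picard and MACS2 were used on hg38; versions, settings and control are not given in the sources used here. The deposited score of a peak was not used. The deposited fold enrichment, a ratio, and the deposited −log10 p and −log10 q are the authors' own values per peak and served only to describe, rank or filter peaks within a list. The deposited summit offset, in bases, placed the summits.

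The genes and the lists of markers and paralogs were chosen with earlier results of these data known. Named were the 5 genes, the 5 next in rank, the paralogs, and the strongest and strongest lost peak per gene and antibody. Peaks of equal start and end were counted once. Gene bodies came from RefSeq (GRCh38.p14), with no exons or introns. Reads at summits were recovered from fold and p, under the form (x + 1)/(λ + 1) and a Poisson tail, and were whole within 0.002 reads for at least 99.98% of peaks in 9 of 10 narrow lists. The SOX10 FHT-1015 list (0.144% whole) gave no heights. Heights are multiples of the lowest λ of the library, taken as its mean pileup, which ranged from 1.23 to 1.97 reads. No source states this form; it was read from the values and tested on simulated data. Shares over all gene bodies include the 5 genes and were also weighted to the members' deciles of −log10 p. No test was made. Python 3.11.15, pandas 2.3.3 and SciPy 1.17.1 were used. Alternatives covered peak threshold, overlap, list length, list type and gene extension.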

Additional observations from a re-analysis of the deposited data

How the results depend on the processing

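With 1 library per condition, nothing here separates FHT-1015 from a difference between 2 immunoprecipitations, and peaks are not replicates. Weak peaks near the listing limit can cross it with depth. No direction reversed in any alternative run, except that of SMARCA4 retention against all gene bodies. The reported share, 55.2%, lay below the 57.4% of all gene bodies. With weak peaks left out it lay above: 72.2% against 60.8%, or 94.4% against 88.3% if they were left out of DMSO only. It also lay above over 1 kb from an annotated start, and below in the other runs. Of the 58 values that answer a comparison, 36 stayed close to the reported one. Close means within 1.5 times it for the summed length, and within its 95% interval for shares and differences between them. No paired analysis was possible because each antibody and condition had a single library. The summed H3K27ac loss of 196 kb became 125.5 kb at a fold of at least 5. There ACTN4 ranked 15 and MSI2 6, and with −log10 p limited to 10 or more they ranked 13 and 6.

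The share of H3K27ac elements lost, 80.7%, was 91.8% if 50% of the DMSO peak had to be covered (all gene bodies 47.5%), 87.6% for summits within 200 bp (58.4%), 67.6% if only peaks reaching a −log10 p of 10 entered from either list (21.1%), 56.8% with it in DMSO only (9.73%), 70.7% with equal numbers of peaks (23.9%) and 70.3% in the broad lists (34.3%). With 50% cover, the retained share was 45.8% for SMARCA4 (all gene bodies 49.8%), 21.3% for MITF (33.7%), 38.9% for AP-2 (54.5%) and 1.46% for SOX10 (13.03%). If only peaks reaching a −log10 p of 10 entered from either list, it was 72.2% (60.8%), 22.6% (40.3%), 38.2% (54.2%) and 1.85% (11.8%). With that limit in DMSO only it was 94.4% (all gene bodies 88.3%), 47.2% (66.4%), 63.6% (76.3%) and 12.96% (38.8%). Summits within 200 bp gave 31.2% for SMARCA4 (38.2%), and equal numbers of peaks 15.2% for SOX10 (42.1%). The gap in SOX10 share between elements not lost and lost, 61.7 percentage points, was 45.4 for elements with −log10 p of at least 10. Restricting peaks to those over 1 kb from an annotated start was chosen after seeing the data.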
